A study of Mus musculus with 6 samples.

Results

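*Fbxo32*, *Fbxo30*, *Fbxo40*, *Trim63*, *Trim54*, *Trim55*, *Trim32*, *Asb2* and *Asb5*, the genes of muscle ubiquitin ligases and of the atrophy response, were taken by gene name, 9 of the 55421 genes in the table. The cells were C2C12, a mouse myoblast line that fuses into myotubes when serum is lowered. The study's differentiation medium, used for both groups, held a low level of horse serum and added insulin. The normal group (CUG5) was stably transfected with a GFP plasmid holding 5 CTG repeats after the GFP coding sequence, and the myotonic dystrophy type 1 (DM1) group (CUG200) with the same kind of plasmid holding 200 repeats. Both groups carried the transgene, were selected with G418 and were collected at differentiation day 4, with 3 RNA-seq libraries each. The study describes the libraries of a group as biological replicates. Whether they came from separate transfections or clones was not given in the sources used here, and p-values measure the spread between these libraries.

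A ubiquitin ligase (E3) brings a substrate to a ubiquitin-charged E2 enzyme, and the substrate tagged in this way is usually degraded by the proteasome. In skeletal muscle several ligases are induced during wasting by FoxO transcription factors, whereas others are part of normal differentiation and of turnover in the sarcomere. The 9 genes fall into 4 kinds. *Fbxo32* (atrogin-1), *Fbxo30* (MUSA1) and *Fbxo40* encode F-box proteins, the substrate receptors of SCF ligases built on cullin 1. *Trim63* (MuRF1), *Trim55* (MuRF2) and *Trim54* (MuRF3) encode the RING-finger proteins of the MuRF family, which bind titin, myosin or microtubules. *Trim32* encodes another RING-finger ligase, mutated in a form of limb-girdle muscular dystrophy. *Asb2* and *Asb5* encode SOCS-box proteins, the receptors of ligases built on cullin 5.

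Of the 9 genes, 4 were lower in CUG200 at an adjusted p under 0.05 (*Asb2*, *Fbxo40*, *Trim55* and *Trim54*), 0 were higher and 5 did not pass the test. Across all 19005 genes tested, 8.73% were lower and 7.13% higher by the same rule. *Asb2* and *Fbxo40* also passed the cutoffs used in the study, which add a log2 fold change beyond 1, and 0.816% of all genes tested were lower by that rule. At an unadjusted p under 0.05 the same test found 5 of the 9 genes lower and 0 higher, beside 16% lower and 14.7% higher of all genes tested, and DESeq2 also found 0 higher. The count of 4 lower genes was 2 without CUG5 replicate 1, CUG5 replicate 3 or CUG200 replicate 2, where *Fbxo40* and *Trim54* missed the threshold. In 7 of the 9 genes every CUG200 library lay below every CUG5 library in counts scaled to library size (CPM), which held for 19.3% of all genes tested. The median log2 fold change was -0.61 over the 9 genes and 0.02 over all genes tested.

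The libraries held between 61707889 and 80957325 counts, and the floor of 3 counts was 0.0371 to 0.0486 CPM of these totals, where CPM is a count scaled to library size. The CPM given for genes include the TMM factors. Skeletal muscle markers were well represented in both groups, and 15 of 20 were lower in CUG200, with a summed level of 14665 to 15945 CPM in CUG5 and 10121 to 10922 CPM in CUG200. In bulk RNA, fewer differentiated cells and less RNA per cell cannot be told apart. Of 6 fibroblast markers tested, 4 were higher (*Mfap5*, *Lum*, *Dpt* and *Cd248*), with sums of 235 to 486 against 398 to 624 CPM and *Tcf21* at 0 in every library. Of 13 markers of undifferentiated myoblasts tested, 2 were higher and 3 lower (1191 to 1213 against 1149 to 1277 CPM). Endothelial (8.52 to 10.3 against 3.98 to 5.78 CPM), immune (3.4 to 4.35 against 3.83 to 4.62 CPM) and adipocyte markers (7.72 to 10.2 against 7.6 to 8.84 CPM) had low sums, and *Tek* (lower) was the only one of the 4 tested that was called. *Adipoq*, *Fabp4*, *Ptprc*, *Adgre1* and *Cd3e*, which define adipocytes and immune cells, were at 0 in all 6 libraries. The part of the markers other than those of skeletal muscle in the results below was not tested.

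The sequences before the starts of *Asb2*, *Fbxo40*, *Trim54* and *Trim63* are shown because these are genes whose groups differed or came closest to it, and because binding sites of muscle and FoxO factors are commonly sought there. Each is the 250 bases upstream of a start site in RefSeq, written along the gene's strand on build GRCm38.p6, as are all coordinates given here. The RefSeq table used here had an entry for 7 of the 9 genes, not for *Fbxo32* and *Trim55*. Capitals mark CANNTG, the general E-box, and GTAAACA, the core of the FoxO site, read on both strands. MyoD-type factors prefer some forms of CANNTG over others, so a marked E-box need not be a site of theirs. The palindrome CAGCTG is one form of CANNTG, so matches to it are counted under both.
Trim63 (chr4:134314870-134315119, plus strand): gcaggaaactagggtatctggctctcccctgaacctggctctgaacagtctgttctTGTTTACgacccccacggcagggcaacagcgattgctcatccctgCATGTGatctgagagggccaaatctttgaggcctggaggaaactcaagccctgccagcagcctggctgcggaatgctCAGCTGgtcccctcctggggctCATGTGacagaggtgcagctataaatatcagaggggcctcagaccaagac
Trim54 (chr5:31116362-31116611, plus strand): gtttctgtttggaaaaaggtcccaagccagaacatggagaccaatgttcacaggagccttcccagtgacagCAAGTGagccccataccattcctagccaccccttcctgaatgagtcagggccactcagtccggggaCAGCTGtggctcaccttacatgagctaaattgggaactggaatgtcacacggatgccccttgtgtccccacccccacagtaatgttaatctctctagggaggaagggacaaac
Fbxo40 (chr16:36990468-36990717, minus strand): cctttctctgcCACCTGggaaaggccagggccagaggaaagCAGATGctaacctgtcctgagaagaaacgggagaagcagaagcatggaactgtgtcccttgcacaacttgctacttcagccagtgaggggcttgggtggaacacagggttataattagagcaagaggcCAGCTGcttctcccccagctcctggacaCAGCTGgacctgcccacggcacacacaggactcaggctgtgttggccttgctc
Asb2 (chr12:103356002-103356251, minus strand): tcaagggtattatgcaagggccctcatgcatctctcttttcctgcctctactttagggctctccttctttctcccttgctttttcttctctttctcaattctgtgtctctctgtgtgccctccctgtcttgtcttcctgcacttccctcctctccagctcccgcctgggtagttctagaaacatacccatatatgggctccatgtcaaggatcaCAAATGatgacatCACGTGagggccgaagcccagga
CANNTG was found upstream of 6 of the 7 genes with an entry and in 66.2% of 32851 windows of the same length. A gene was counted if any of its entries matched (*Asb5* had 3, *Asb2* and *Fbxo40* 2 each), whereas the shares over all windows are per single window, so the 2 are not on the same footing. CAGCTG was found for 4 of the 7 genes (*Trim63*, *Trim54*, *Fbxo40* and *Trim32*) and in 13% of windows. It began 72 bases before the start of *Trim63*, 113 before that of *Trim54*, and 81 and 53 before that of *Fbxo40*. GTAAACA was found for 1 gene, *Trim63*, on the opposite strand 194 bases before the start, and in 3.17% of windows. *Asb2* held CAAATG and CACGTG, 36 and 23 bases before its start. The RefSeq start of *Trim54* lay 100 bases upstream of the gene's start in the deposited files, and the other 3 starts shown were those of the files. A match describes the letters and not binding.

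Levels of different genes were compared in TPM (the deposited level, scaled for transcript length). In CUG5, *Asb5* had the highest level (337 ± 36.5 TPM, SD, n = 3), followed by *Trim55* (64.8 ± 6.66 TPM) and *Trim54* (22.9 ± 2.2 TPM). *Fbxo30* (14.3 ± 0.633 TPM) and *Trim32* (8.97 ± 1.04 TPM) came next. *Trim63* (5.75 ± 0.271 TPM) and *Fbxo32* (5.69 ± 0.414 TPM), the most widely used atrophy markers, had overlapping ranges and could not be ordered. *Asb2* (4.15 ± 0.152 TPM) and *Fbxo40* (1.17 ± 0.269 TPM) were lowest. Neighbours in this order other than *Trim63* and *Fbxo32* were separated in every CUG5 library. In CUG200 the ranges of *Trim54* (13.8 ± 2.78 TPM) and *Fbxo30* (11.3 ± 1.2 TPM) overlapped, as did those of *Asb2* (1.07 ± 0.415 TPM) and *Fbxo40* (0.563 ± 0.259 TPM). *Asb5* stood at 355 ± 18.7 TPM and *Trim55* at 38.5 ± 3.23 TPM, again the highest. *Fbxo32* was listed at 0, 4.34 and 4.98 TPM, a range that overlapped those of *Trim63* (3.85 ± 0.365 TPM) and *Asb2*, so its place in the order was not determined.

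**Figure D1:**
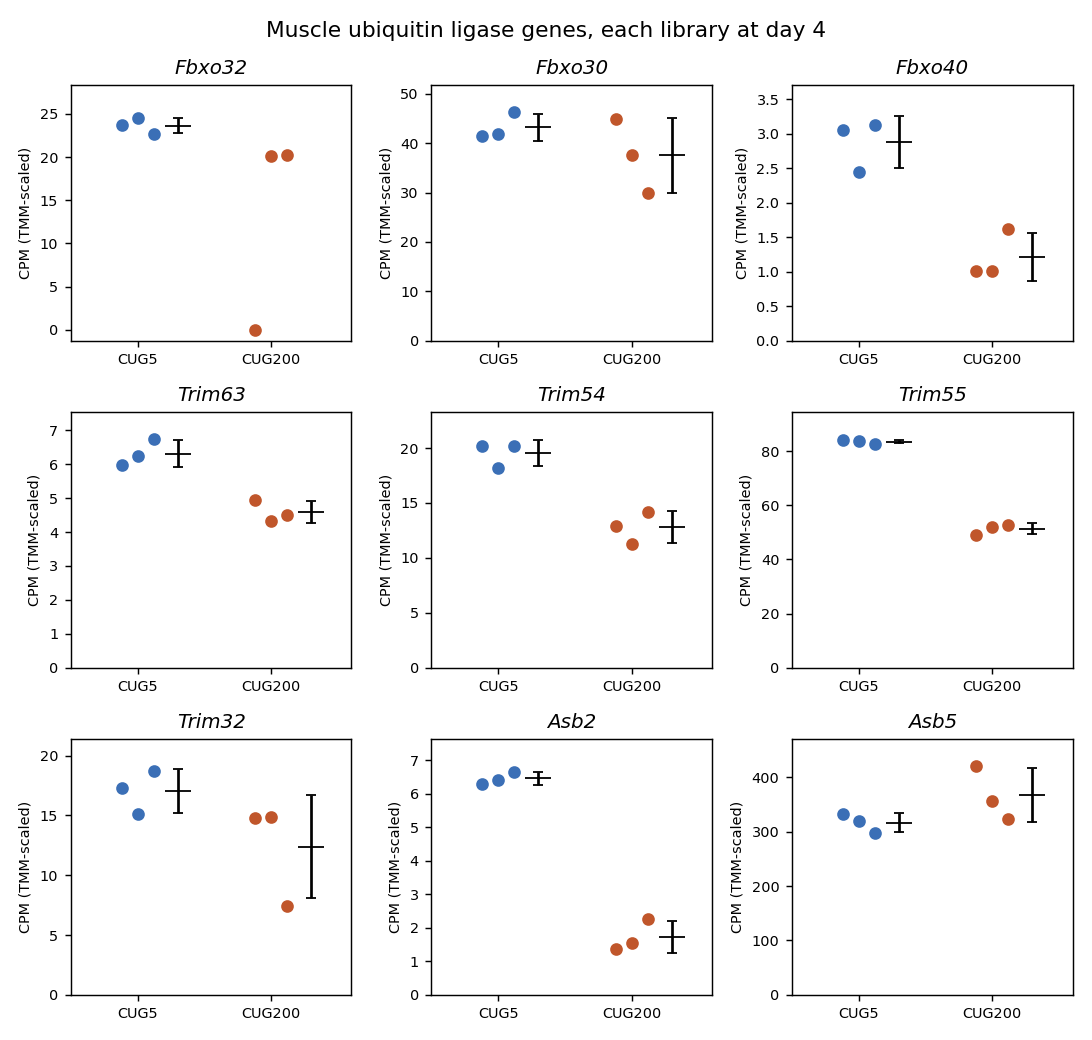
Level of each gene in every library, as TMM-scaled CPM on axes that differ between panels, with the mean and SD of 3 libraries beside the points (not drawn for *Fbxo32* in CUG200, where 1 library is at 0). CUG5 and CUG200 points are apart in all panels but those of *Fbxo30* and *Asb5*.

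Of the SOCS-box genes, *Asb2* was lower in CUG200 and *Asb5* did not pass the test. *Asb2* (ENSMUSG00000021200, chr12:103321142-103356001, minus strand), whose product acts in muscle differentiation, had 6.3, 6.4 and 6.66 CPM in the CUG5 libraries and 1.36, 1.56 and 2.27 CPM in the CUG200 libraries. The groups were far apart, and the highest CUG200 library lay below every CUG5 library. The means of 6.45 ± 0.181 and 1.73 ± 0.48 CPM (SD, n = 3 each) gave a log2 fold change of -1.90 (SE 0.21, adjusted p = 0.00198), with 26.8% of the normal level left. These values rested on 393 to 530 counts per CUG5 library and 101 to 151 per CUG200 library. A deposited count stood for 75 aligned bases, so the fragments behind these values may be fewer. *Asb2* was called in all 17 alternative settings tried.

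*Asb5* (ENSMUSG00000031519, chr8:54529580-54587875, plus strand), expressed in muscle and its satellite cells, had 333, 319 and 298 CPM in CUG5 and 421, 356 and 324 CPM in CUG200. The ranges overlapped, with CUG200 replicate 1 the highest of the 6 libraries. Its log2 fold change was 0.21 (SE 0.11, 95% interval -0.04 to 0.46, adjusted p = 0.231). It was 0.12 without CUG200 replicate 1, 0.30 without CUG200 replicate 3 and 0.08 with limma on log2(TPM + 1). *Spcs3* overlaps *Asb5* on the opposite strand and held 7754 to 12574 counts per library, against 19588 to 31337 for *Asb5*. The strand setting of the counting was not given in the sources used here, so reads of the 2 genes may not have been separated. Of the other ASB genes, 10 of 16 were tested and *Asb14* was the only one that edgeR called (log2 fold change -1.34, adjusted p = 0.033), at no more than 90 counts in any library. That call was lost without CUG5 replicate 2, CUG5 replicate 3 or CUG200 replicate 2, and DESeq2 called 1 other ASB gene higher. The share called lower by edgeR was 10%, beside 8.73% of all genes tested. At an unadjusted p under 0.05 edgeR found 5 of these 10 lower and 1 higher (16% and 14.7% of all genes tested). Their median log2 fold change was -0.42, and -0.24 without CUG5 replicate 1.

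Among the F-box genes, *Fbxo40* (ENSMUSG00000047746, chr16:36963460-36990467, minus strand), a muscle-restricted receptor that targets the insulin receptor substrate Irs1, was the only one called lower. It had 3.05, 2.44 and 3.13 CPM in CUG5 and 1.01, 1.01 and 1.62 CPM in CUG200. Every CUG200 library was below every CUG5 library. The means were 2.87 ± 0.376 and 1.21 ± 0.355 CPM, and the log2 fold change was -1.24 (SE 0.25, 95% interval -1.82 to -0.67, adjusted p = 0.014). With 72 to 108 counts per CUG200 library, and possibly fewer fragments, it was the least covered of the 9 genes. Its call was lost without CUG5 replicate 1, CUG5 replicate 3 or CUG200 replicate 2 (log2 fold changes -1.20, -1.17 and -1.13, with adjusted p = 0.0558, 0.063 and 0.0587). It was also lost with limma on log2(TPM + 1) (-0.48, adjusted p = 0.1) and on log2(TPM + 0.1) (-0.98, adjusted p = 0.122). *Irs1* did not pass the test (log2 fold change 0.12, adjusted p = 0.366).

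*Fbxo32* (ENSMUSG00000022358, chr15:58175879-58214932, minus strand), the atrophy ligase atrogin-1, had 1992, 1503 and 1587 counts in CUG5 and 0, 1433 and 1346 in CUG200. The 0 was in CUG200 replicate 1, where the neighbouring genes *Atad2*, *Zhx1* and *Wdyhv1* had 5191, 1753 and 381 counts, each within or above its range in CUG5. Whether the 0 came from the cells or from the quantification of this gene was not tested. Over the table, 5 genes were at 0 in 1 library and at 500 or more counts in the other 5. They were *Fbxo32* and *Lats1* in CUG200 replicate 1, *Skp2* and *Gm20716* in CUG200 replicate 3, and *Gm10260* in CUG5 replicate 3. *Skp2*, named here after its values were seen, encodes another F-box protein.

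In the other 5 libraries *Fbxo32* stood at 23.7, 24.5 and 22.7 CPM (CUG5) and at 20.1 and 20.2 CPM (CUG200 replicates 2 and 3). The 2 CUG200 values were close to each other and just under the lowest CUG5 value. With all 6 libraries the log2 fold change was -0.81, but its interval ran from -5.04 to 3.41 (SE 1.56, adjusted p = 0.789). Without CUG200 replicate 1 it was -0.21 (SE 0.0991, 95% interval -0.44 to 0.01, adjusted p = 0.201), or 86.2% of the normal level, with the spread of CUG200 resting on 2 libraries. Neither fit called it, and the size of the difference was set by that library. Without *Fbxo32*, the median log2 fold change of the remaining genes was -0.54.

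*Fbxo30* (ENSMUSG00000047648, chr10:11281330-11298052, plus strand), the ligase MUSA1 of denervation atrophy, had 41.4, 41.9 and 46.3 CPM in CUG5 and 45, 37.7 and 29.9 CPM in CUG200. The CUG200 libraries spread over a wider CPM range that took in part of the CUG5 range. Its log2 fold change was -0.20 (SE 0.14, 95% interval -0.52 to 0.12, adjusted p = 0.385), and it was -0.34 without CUG200 replicate 1 and -0.06 without CUG200 replicate 3. In TPM the groups were apart, at 13.6 to 14.7 in CUG5 and 10.1 to 12.5 in CUG200. With limma on log2(TPM + 1) the log2 fold change was -0.32 (adjusted p = 0.183).

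The 3 MuRF genes were each lower in every CUG200 library than in any CUG5 library. *Trim55* (ENSMUSG00000060913, chr3:19644474-19692421, plus strand), which links titin and microtubules as the sarcomere forms, had 84, 83.6 and 82.8 CPM in CUG5 and 49, 52.1 and 52.8 CPM in CUG200. The libraries of each group lay close together, and the gap between groups was many times the spread within them. Its log2 fold change was -0.70 (SE 0.0729, adjusted p = 0.00168), the smallest p of the 9 genes, from means of 83.5 ± 0.635 and 51.3 ± 2.03 CPM. *Trim55* was called in all 17 alternative settings. *BC002189* overlaps it on the same strand with 327 to 551 counts per library, and the sum of both genes gave -0.69 (adjusted p = 0.00157).

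*Trim54* (ENSMUSG00000062077, chr5:31116712-31137630, plus strand), which stabilises microtubules in myotubes, had 20.2, 18.2 and 20.2 CPM in CUG5 and 12.9, 11.3 and 14.2 CPM in CUG200. The groups were apart, with a log2 fold change of -0.61 (SE 0.12, 95% interval -0.88 to -0.34, adjusted p = 0.0129). Its call was lost without CUG5 replicate 1, CUG5 replicate 3 or CUG200 replicate 2 (adjusted p = 0.0536, 0.0635 and 0.0523), although the log2 fold change stayed between -0.69 and -0.53 whichever library was left out. *Trim63* (ENSMUSG00000028834, chr4:134315120-134329629, plus strand), the ligase MuRF1 that ubiquitinates myosin heavy chain in wasting muscle, had 5.97, 6.25 and 6.73 CPM in CUG5 and 4.96, 4.34 and 4.5 CPM in CUG200. The groups were apart here too. The log2 fold change of -0.46 (SE 0.14, 95% interval -0.77 to -0.15) missed the threshold at an adjusted p of 0.0524. It passed with genes held to at least 10 counts in every library (adjusted p = 0.0491) or with counts divided by 4 (0.0489).

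The proportions of the 3 MuRF genes to each other were computed from TPM. Their summed level was 93.4 ± 7.89 TPM in CUG5 and 56.2 ± 6.21 TPM in CUG200, apart in every library, with an exact two-sided permutation p of 0.1, the smallest that 3 against 3 libraries allow. *Trim55* made up 69.3 ± 2.27% of that sum in CUG5 and 68.7 ± 2.2% in CUG200 (exact permutation p = 0.6). *Trim54* made up 24.5 ± 1.76% and 24.4 ± 2.28% (exact permutation p = 1). *Trim63* made up 6.19 ± 0.704% and 6.86 ± 0.109% (exact permutation p = 0.3), a difference of 0.672 percentage points that was 0.378 without CUG5 replicate 1 and 1.06 without CUG5 replicate 3. The ranges of these shares overlapped between groups for all 3 genes. The differences for *Trim55* (-0.586 percentage points) and *Trim54* (-0.0853) had no stable sign. That for *Trim55* was 0.424 without CUG5 replicate 2, 0.669 without CUG200 replicate 3 and -1.67 from CPM. That for *Trim54* was 0.754 without CUG5 replicate 3, 0.693 and 0.445 without CUG200 replicates 1 and 2, and 0.745 from CPM. Computed from CPM, the *Trim63* share was 5.42, 5.79 and 6.13% in CUG5 and 7.42, 6.41 and 6.29% in CUG200, with the groups apart and at the smallest possible exact permutation p of 0.1. With 3 against 3 libraries no difference in a share could reach 0.05, so these p-values do not show that the shares were equal.

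*Trim32* (ENSMUSG00000051675, chr4:65604986-65616238, plus strand), which acts on actin, desmin and dysbindin, had 17.3, 15.1 and 18.7 CPM in CUG5 and 14.8, 14.9 and 7.4 CPM in CUG200. All CUG200 libraries were lower, but replicates 1 and 2 lay just under the lowest CUG5 library and replicate 3 lay far below the rest. The log2 fold change was -0.46 (SE 0.26, 95% interval -1.05 to 0.13, adjusted p = 0.271), and it ranged from -0.62 to -0.20 when 1 library was left out.

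**Figure D2:**
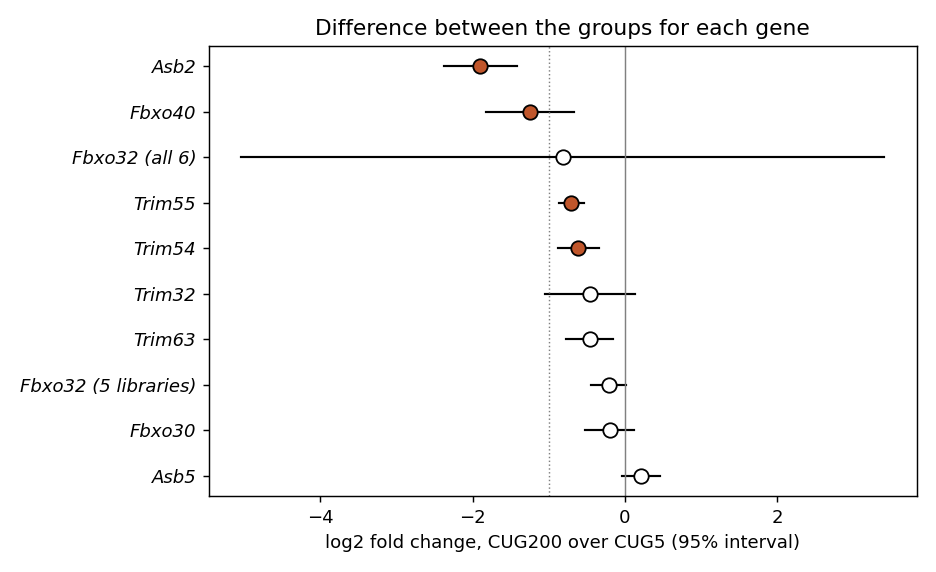
Log2 fold change of each gene, CUG200 over CUG5, with its 95% interval from edgeR's quasi-likelihood test. Filled points passed an adjusted p under 0.05, the dotted line marks the study's cutoff of -1, and *Fbxo32* is drawn with all 6 libraries and without CUG200 replicate 1. The 4 filled points lie between -1.90 and -0.61, and *Asb5* alone lies above 0.

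The groups also differed in the level of muscle genes as a whole, so each gene was set against the mean log2 CPM of the 20 skeletal muscle markers in the same library. That mean was 8.25, 8.18 and 8.26 in CUG5 and 7.49, 7.53 and 7.60 in CUG200, a difference of -0.69 (exact permutation p = 0.1). Relative to it, *Trim55* differed by -0.01 on the log2 scale (exact permutation p = 0.7). *Trim54* differed by 0.07 (exact permutation p = 0.5), and by 0.02 to 0.16 when 1 library was left out. Both genes had overlapping ranges. Both thus differed between the groups by about as much as the mean of the markers, whose own log2 fold changes ran from -2.90 (*Myh8*) to 0.23 (*Mymx*, not called) with a median of -0.53. *Trim32* differed by 0.16, with overlapping ranges (exact permutation p = 0.8), and its value was -0.03, -0.02 or 0.52 without CUG200 replicate 1, 2 or 3.

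*Asb2* was lower relative to the markers by the largest amount of the 9 genes (-1.24), and *Fbxo40* was also lower (-0.58). *Asb5* (0.89), *Fbxo30* (0.47) and *Trim63* (0.23) were higher relative to the markers. The marker mean itself differed by -0.69, so a gene with an unchanged level would also stand higher on this scale. Without reference to the markers, the log2 fold changes were 0.21 (*Asb5*), -0.20 (*Fbxo30*) and -0.46 (*Trim63*), and none passed the test. In *Asb2*, *Fbxo40*, *Asb5*, *Fbxo30* and *Trim63* the groups were apart, at an exact permutation p of 0.1 each, the smallest possible. The share of all genes tested whose groups were apart on this scale was not computed. Without CUG200 replicate 1 the values of *Fbxo30* and *Trim63* were 0.30 and 0.15. The nearest libraries of the groups were almost level for *Fbxo30* (-2.70 and -2.72) and *Fbxo40* (-6.90 and -6.89). *Fbxo32* was 0.44 higher over the 2 CUG200 libraries where it was counted (exact permutation p = 0.2). With *Ckm*, *Acta1* and *Myog* alone as the markers, the values kept these directions except that of *Trim55*, which became 0.10. That of *Trim54* became 0.19, and the ranges of *Fbxo40* overlapped (-0.46). The p-values of these 9 comparisons were not adjusted, since none could pass 0.05.

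**Figure D3:**
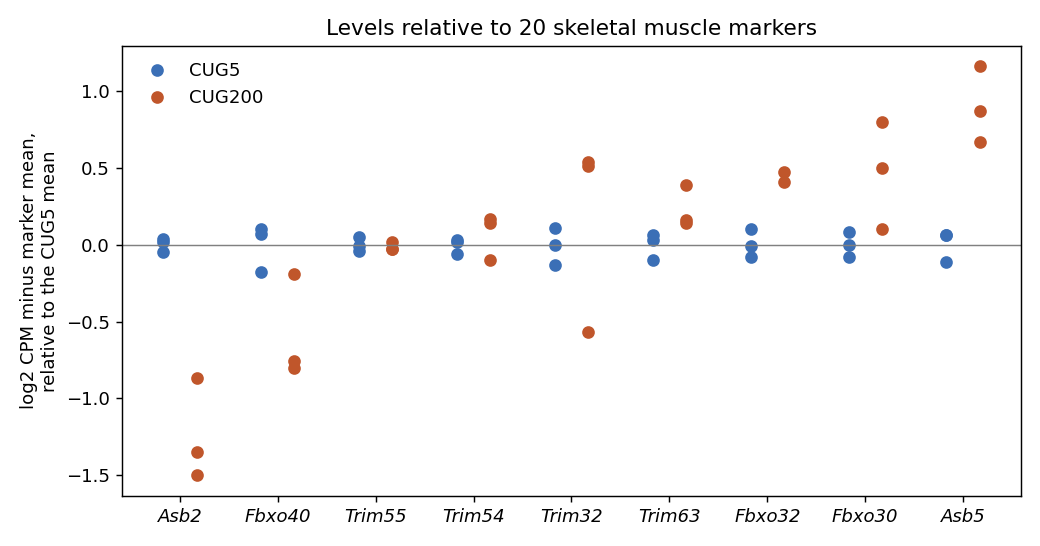
Log2 CPM of each gene minus the mean log2 CPM of 20 skeletal muscle markers in the same library, set to 0 at the CUG5 mean, with 1 point per library (*Fbxo32* without CUG200 replicate 1). *Asb2* and *Fbxo40* lie below 0 in CUG200, *Trim55* and *Trim54* around 0, and *Asb5* highest.

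The genes whose levels followed *Trim55* most closely over the 6 libraries were *Pdpr* (Pearson's r of log2 CPM 0.9982, log2 fold change -0.74), *Ptpn9* (0.9982, -0.36) and *Fras1* (0.9973, -2.53). The 6 points fall into the 2 groups, with a gap between them in each of these genes.

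Around these ligases, 8 lists of pathway genes held 167 distinct tested genes beside the 9. Of these, 44 (26.3%) were lower and 6 (3.59%) higher in CUG200, beside 8.73% and 7.13% of all genes tested, with a median log2 fold change of -0.16. The count of lower genes fell to 23 without CUG5 replicate 3 or without CUG200 replicate 2, to 26 without CUG5 replicate 1 and to 27 without CUG5 replicate 2. That of higher genes rose to 14 without CUG200 replicate 3.

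Most shared parts of the ligases did not pass the test. Of 11 genes of the SCF and cullin 5 complexes, *Cul1*, the scaffold of SCF ligases (log2 fold change -0.45, adjusted p = 0.0287), and *Cand1*, which exchanges their F-box receptors (-0.45, adjusted p = 0.00728), were lower. *Elob*, the elongin B adaptor of cullin 5 ligases, was higher (0.63, adjusted p = 0.00409). Without CUG5 replicate 1, 2 or 3 or without CUG200 replicate 2, 1 of the 11 was lower. Those higher were 3 without CUG200 replicate 3 and 2 with DESeq2. *Skp1a* (0.21, adjusted p = 0.26) and *Cul5* (-0.15, adjusted p = 0.508) were not called. Of 24 ubiquitin, E1 and E2 genes, 4 were lower and 1 higher, and the lower ones included the E2 genes *Ube2d1* (-0.66, adjusted p = 0.00332) and *Ube2g2* (-0.39, adjusted p = 0.0208). In the same 4 fits with 1 library left out 2 of the 24 were lower, and 2 were higher without CUG200 replicate 3.

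Of 29 other muscle ligase genes, 8 were lower and 0 higher, with a median of -0.23. At an unadjusted p under 0.05 edgeR found 14 lower and 1 higher (16% and 14.7% of all genes tested), and DESeq2 called 1 higher. The count of 8 was 3 without CUG5 replicate 1, CUG5 replicate 3 or CUG200 replicate 2, and 5 without CUG5 replicate 2, where 1 gene was higher. The lower genes included *Klhl31* (-0.91, adjusted p = 0.00393) and *Klhl41* (-0.52, adjusted p = 0.0107), kelch proteins of cullin 3 ligases in muscle, and *Traf6* (-0.45, adjusted p = 0.00903), a ligase of signalling and atrophy. Of 12 deubiquitylase genes 3 were lower, *Usp28* (-0.58, adjusted p = 0.0034), *Usp10* (-0.77, adjusted p = 0.00443) and *Usp2* (-0.81, adjusted p = 0.036).

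The FoxO genes themselves did not pass the test. The log2 fold changes were -0.34 for *Foxo1* (adjusted p = 0.0889), 0.23 for *Foxo3* (0.162), -0.24 for *Foxo4* (0.16) and -0.20 for *Foxo6* (0.492), so their estimates did not share a sign. Of the 27 regulators tested, 7 were lower and 1 higher. The lower count was 4 without CUG5 replicate 1, 2 or 3 or without CUG200 replicate 2, and the higher count was 3 without CUG200 replicate 1 and 2 with DESeq2. The lower ones included *Prkaa2*, a catalytic subunit of the energy sensor AMPK (-1.32, adjusted p = 0.00198), *Myog*, the myogenic factor that activates *Fbxo32* and *Trim63* after denervation (-0.65, adjusted p = 0.00227), and *Akt1*, a kinase that inhibits FoxO (-0.47, adjusted p = 0.00767). The growth factor gene *Igf1*, which acts through Akt, was the higher one (0.79, adjusted p = 0.00569).

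Other genes of the atrophy response were split, with 5 lower and 3 higher of 23 (21.7% and 13%). Over all genes tested, 8.73% were lower and 7.13% higher. The median of the list was 0.02, which became -0.02 when libraries were scaled by size alone. The autophagy receptor gene *Sqstm1* (-0.61, adjusted p = 0.00331), *Tgif1* (-0.40, adjusted p = 0.0252) and the cell cycle inhibitor gene *Cdkn1a* (-0.33, adjusted p = 0.0257) were lower. The higher genes were *Bnip3* (0.73, adjusted p = 0.00327) and *Bnip3l* (0.39, adjusted p = 0.0262), which encode mitophagy receptors, and *Txnip*, an inhibitor of thioredoxin (0.65, adjusted p = 0.00487). Of the 23, 7 were higher without CUG200 replicate 3 and 5 with DESeq2. The lower count was 1 without CUG5 replicate 3 or CUG200 replicate 2, 2 without CUG5 replicate 1 or 2, and 3 without CUG200 replicate 1.

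Genes of substrates and partners of the ligases were lower in 15 of 33 cases and higher in 0, with a median of -0.41. At an unadjusted p under 0.05 edgeR found 17 lower and 1 higher (16% and 14.7% of all genes tested), and DESeq2 called 1 higher. Those with the smallest p encode contractile and energy proteins handled by the MuRF family or bound at the sarcomere, namely *Ckm*, muscle creatine kinase (-0.84, adjusted p = 0.00159), *Actn2*, alpha-actinin of the Z-disc (-1.22, adjusted p = 0.00211), and *Myh4*, a fast myosin heavy chain (-1.42, adjusted p = 0.0027). *Ckm* and *Actn2* are also on the list of muscle markers. Over the 8 pathway lists, 6 genes were also on that marker list, and 39 of the 44 lower genes were not on it. The lower genes absent from it still included genes of muscle proteins, such as *Myh4*, *Klhl31* and *Klhl41*. The count of 39 therefore does not separate the pathway genes from the muscle genes. How many of the 39 are muscle genes was not tested.

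**Figure D4:**
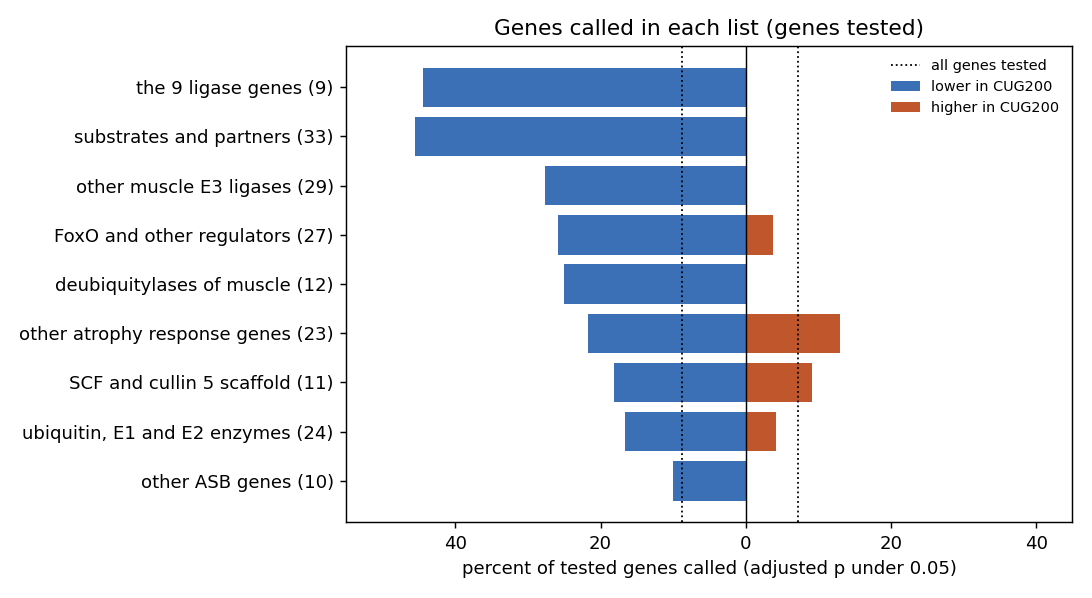
Percent of the tested genes called lower (left) or higher (right) in CUG200 at an adjusted p under 0.05, for the 9 ligase genes and the 8 pathway lists (cell type markers not drawn), with the number tested in brackets. The dotted lines mark all genes tested (8.73% lower, 7.13% higher). The 9 ligase genes and the substrates and partners have the longest bars to the left among these, and neither has a bar to the right.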

How the data were processed

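Total RNA of C2C12 cells carrying GFP-CUG5 or GFP-CUG200 was sequenced on day 4 of differentiation, in 3 libraries of each group, grouped by their labels. The authors trimmed the reads with Trim Galore, aligned them to GRCm38 with HISAT2 and quantified them with StringTie (versions not given in the sources used here). They deposited 1 table of counts per gene, without normalization, and for each library a table with the coverage of every gene and its TPM, a level that StringTie corrects for the length of transcripts and the size of the library. All count columns were mapped to libraries, and 0 columns were left unused. A deposited count stood for 75 aligned bases (coverage times length divided by 75 was within 1 count in every library for 99.2% of single-transcript genes), and the read length was not given in the sources used here. If 4 counts make 1 fragment, which is an assumption, the totals come to 15426972 to 20239331 fragments. Counting floors cover counting error only.

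Counts were filtered with filterByExpr (minimum count 10), scaled by TMM and compared with edgeR 4.0.16 (R 4.3.3), using the robust quasi-likelihood test with Benjamini-Hochberg adjustment over all 19005 genes. A gene was called at an adjusted p under 0.05, and the study's cutoffs add an absolute log2 fold change over 1. Standard errors are the log2 fold change divided by the root of F, and 95% intervals use the t quantile of the fit. MuRF shares and levels relative to markers were compared by exact two-sided permutation tests. Named are all 9 genes, up to 3 genes with the smallest p in each direction of each list, the FoxO, SCF and cullin 5 genes a sentence needs, and the 3 genes most like the called gene with the smallest p. The members, lists and tests were chosen with earlier results of these data known. The alternatives were DESeq2 1.42.0, its size factors, library size alone, other filters, no robust estimation, counts divided by 4, summed overlapping genes, limma 3.58.1 on TPM, a replicate block, and each library left out. The scripts were tested on simulated data. Promoter sequences came from RefSeq. Protein sequences were not used here. Some genes that the rule would name are not reported here.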

Additional observations from a re-analysis of the deposited data

How the results depend on the processing

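*Trim55* and *Asb2* were called lower in all 17 alternatives, and no gene of the 9 changed direction in any. *Fbxo32* ranged from -2.14 to -0.21 over 16 alternatives and was removed by the filter of at least 10 counts in every library. The 4 lower genes became 2 with the study's cutoffs and 2 to 4 when 1 library was left out, and 0 were higher in each of these fits. Over all genes, 1660 lower and 1356 higher became 673 and 352 with limma on log2(TPM + 1), 696 and 354 on log2(TPM + 0.1), and 155 and 259 with the study's cutoffs. With 1 library left out they were 485 to 2111 and 543 to 1678. Of the pathway genes, 23 to 49 were lower and 5 to 14 higher with 1 library left out, and DESeq2 called 13 higher. The difference in the *Trim54* share, -0.0853 percentage points, was 0.745 when computed from CPM and -1.39 to 0.754 with 1 library left out, and that of *Trim55*, -0.586, was -1.82 to 0.669. The median of the other atrophy genes was -0.02 with library size alone. The cause of these changes was not tested.

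The replicate numbers of the labels showed no sign of pairing. Deviations of same-numbered libraries from their group means correlated by 0.06, 0.02 and 0.02, and those of other pairs by -0.07 to 0.05. Whether the libraries were prepared in numbered pairs was not given in the sources used here, and these correlations cannot exclude it. With the replicate block, 4 of the 9 genes were lower and 0 higher (*Trim55* -0.70, adjusted p = 0.0078), and 1497 genes were lower over all genes. The lowest counts behind a called gene of the 9 were those of *Fbxo40*, 72 to 108 per CUG200 library.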
